A study of Mus musculus with 6 samples.

Results

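Transcripts of 10 acute phase serum protein genes were measured in mouse liver: the serum amyloid A genes Saa1, Saa2, Saa3 and Saa4, the orosomucoid genes Orm1, Orm2 and Orm3, and Lcn2, Hp and Itih4. They were taken from the tables by symbol. All 10 were found among the 24411 gene rows, and all 10 were among the 13563 genes that passed the low-count filter and were tested. Bulk RNA sequencing had been done on flash-frozen livers of male mice aged 24 weeks after 12 weeks of a NASH (non-alcoholic steatohepatitis) diet, with 3 libraries of the genotype Control and 3 of the genotype Cyr61 KO. The labels give the strain Cyr61fl/fl, a floxed Cyr61 allele, for both groups, so the controls carry it as well, and all 6 libraries share the diet. They do not name the Cre driver or the cells in which the gene was removed, and no animals on normal chow are analysed here. They also do not say that each library is a separate mouse, so every p-value measures the spread between libraries, which may be technical.

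The acute phase response is the change in plasma protein synthesis that follows infection, injury or inflammation. Cytokines of the interleukin-6, interleukin-1 and tumour necrosis factor families reach the hepatocyte, where STAT3, NF-kB and C/EBP transcription factors raise the genes of the positive acute phase proteins, while those of the negative acute phase proteins, such as albumin and transthyretin, are lowered. Serum amyloid A proteins ride on high-density lipoprotein, orosomucoids bind basic and lipophilic molecules, lipocalin 2 (Lcn2) binds bacterial siderophores, haptoglobin (Hp) captures free haemoglobin, and Itih4 belongs to the heavy chain family of inter-alpha-trypsin inhibitors. Cyr61 (Ccn1) encodes a secreted matricellular protein, which the series title places in macrophage signalling during fibrosis of the fatty liver.

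The sequences just upstream of the start sites are shown for the 5 genes that were called lower in Cyr61 KO and for Saa4, a neighbour of Saa1 that was not. They are the 250 bases before each start site on the gene's own strand, from RefSeq on GRCm38.p6, and 8 of the 10 genes had an entry in the promoter table used, all but Orm1 and Hp. The stretches lie at chr7:46742981-46743230 (Saa1, minus strand), chr7:46751583-46751832 (Saa2, plus strand), chr7:46715677-46715926 (Saa3, minus strand), chr7:46732604-46732853 (Saa4, minus strand), chr4:63362199-63362448 (Orm2, plus strand) and chr2:32387740-32387989 (Lcn2, minus strand). Capitals mark letters that match a C/EBP motif on either strand and, in Orm2, also a TATA box. RefSeq start sites need not equal the GENCODE gene ends given further on.
Saa1: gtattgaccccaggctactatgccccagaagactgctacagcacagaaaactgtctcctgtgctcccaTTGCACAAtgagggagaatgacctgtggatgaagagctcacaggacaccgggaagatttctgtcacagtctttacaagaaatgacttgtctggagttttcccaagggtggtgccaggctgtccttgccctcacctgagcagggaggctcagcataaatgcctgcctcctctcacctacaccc
Saa2: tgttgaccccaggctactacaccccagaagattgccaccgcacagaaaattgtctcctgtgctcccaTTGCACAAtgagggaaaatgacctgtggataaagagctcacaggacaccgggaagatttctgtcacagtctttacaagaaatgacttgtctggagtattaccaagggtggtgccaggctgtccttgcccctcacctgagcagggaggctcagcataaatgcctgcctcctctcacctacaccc
Saa3: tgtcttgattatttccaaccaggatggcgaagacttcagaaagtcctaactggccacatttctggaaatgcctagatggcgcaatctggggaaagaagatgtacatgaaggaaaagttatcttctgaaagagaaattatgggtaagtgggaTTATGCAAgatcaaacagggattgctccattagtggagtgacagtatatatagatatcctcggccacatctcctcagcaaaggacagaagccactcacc
Saa4: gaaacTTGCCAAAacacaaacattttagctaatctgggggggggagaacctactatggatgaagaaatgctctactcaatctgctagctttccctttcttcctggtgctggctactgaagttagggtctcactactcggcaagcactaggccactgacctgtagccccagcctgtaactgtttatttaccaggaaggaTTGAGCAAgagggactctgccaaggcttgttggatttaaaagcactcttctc
Orm2: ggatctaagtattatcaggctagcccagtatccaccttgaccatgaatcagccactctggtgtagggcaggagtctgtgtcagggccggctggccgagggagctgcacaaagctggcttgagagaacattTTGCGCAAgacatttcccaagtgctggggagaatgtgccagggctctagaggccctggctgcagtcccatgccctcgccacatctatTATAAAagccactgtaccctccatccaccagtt
Lcn2: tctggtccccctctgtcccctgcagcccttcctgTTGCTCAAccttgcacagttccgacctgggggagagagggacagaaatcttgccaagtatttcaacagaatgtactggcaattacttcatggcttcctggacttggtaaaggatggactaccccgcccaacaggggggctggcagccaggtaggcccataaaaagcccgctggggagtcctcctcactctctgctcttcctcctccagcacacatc

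The motifs were searched on both strands of the 300-base promoters, which add 50 bases after the start site: NF-kB as GGG and TTTCC with 2 bases of any kind between them, C/EBP as TTGCNNAA, STAT as TTCNNNGAA, the interleukin-6 response element as CTGGGAA and the TATA box as TATAAA. The C/EBP letters were present in 7 of the 8 promoters, all but that of Itih4, against 10.8% of the 32851 promoters of the same length in the table. Counted in bases from the start site, they began at -182 in Saa1, -183 in Saa2, -99 in Saa3, -120 in Orm2, -121 in Orm3 and -216 in Lcn2, and Saa4 held them at -245 and -52. The promoters of Saa1 and Saa2 are 95.3% identical and those of Orm2 and Orm3 86.6%, so these matches are not independent of each other. The NF-kB letters were found in 0 of the 8, against 1.63% of all promoters, which says only that these letters are not in this window. STAT letters were found in Itih4 alone among the 8 (8.3% of all promoters), the interleukin-6 response element in Orm3 alone (11.1%), and the TATA box in Orm2, Orm3 and Itih4 (13.6%). The STAT letters began at -51, and those of the interleukin-6 response element at 10, after the start site and on the opposite strand. The TATA letters began at -33 in Orm2 and -29 in Orm3, on the gene's own strand. In Itih4 they began at -3 on the opposite strand and ran across the start site. No matches overlapped. Saa4, which was not called, held the C/EBP letters as the called genes did, and a match of letters is not a site of binding.

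**Figure D1:**
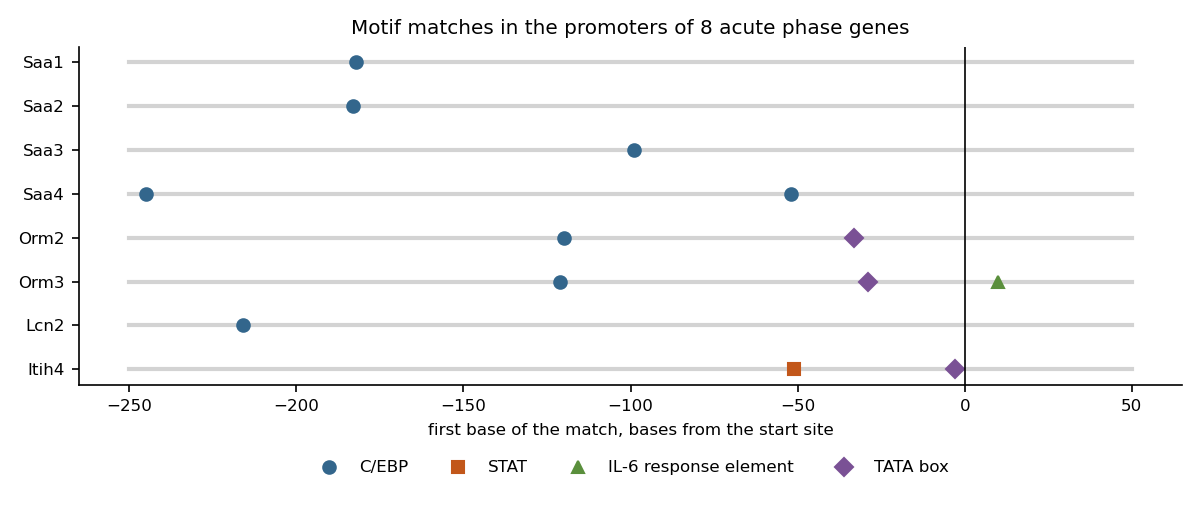
Positions of motif matches in the promoters of 8 of the 10 genes. The horizontal axis gives the first base of each match in bases from the start site (vertical line), each row is a gene, and symbols mark the motif. C/EBP letters lie in 7 of the 8 rows, with first bases from -245 to -52.

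The 6 libraries held 21032878 to 40377742 gene counts. Expression is given as CPM, the count of a gene per fixed number of counts in its library, with library sizes adjusted by the trimmed mean of M values (TMM), and values of a group follow the order of its replicate numbers 1, 2 and 3. Cyr61 itself measured 15.6, 32.4 and 27.8 CPM in controls against 3.77, 2.66 and 3.14 CPM in Cyr61 KO, a log2 fold change of -2.98 ± 0.32 (SE, n = 3 per group, edgeR adjusted p = 0.0103). Control replicate 2 stood apart, since genes took 50.9% of its reads, whereas the remaining libraries had 82.8% to 87.6%. Control replicate 3 stood apart in the genes described here, being the highest control library for 9 of the 10. The log2 fold change of each of the 10 genes is therefore also given without each of these libraries.

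Of the 10 genes 5 were lower in Cyr61 KO liver by edgeR's quasi-likelihood test at a Benjamini-Hochberg adjusted p below 0.05: Saa2, Lcn2, Saa1, Orm2 and Saa3, in order of size. Of all genes tested 2.37% were called lower and 3.44% in either direction. None of the 10 was called higher by edgeR, against 1.07% of all genes, nor by DESeq2 or limma voom, and 0 were higher at an unadjusted p below 0.05, against 11.3% of all genes. Every Cyr61 KO library lay below every control library for 6 of the 10, the 5 called genes and Hp, against 17.9% of all genes. For 0 of the 10 did every Cyr61 KO library lie above every control, against 17.3% of all genes. The median log2 fold change was -2.01 for the 10 genes and -0.03 for all genes. In bulk liver, fewer cells of a type and less RNA per cell cannot be told apart.

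**Figure D2:**
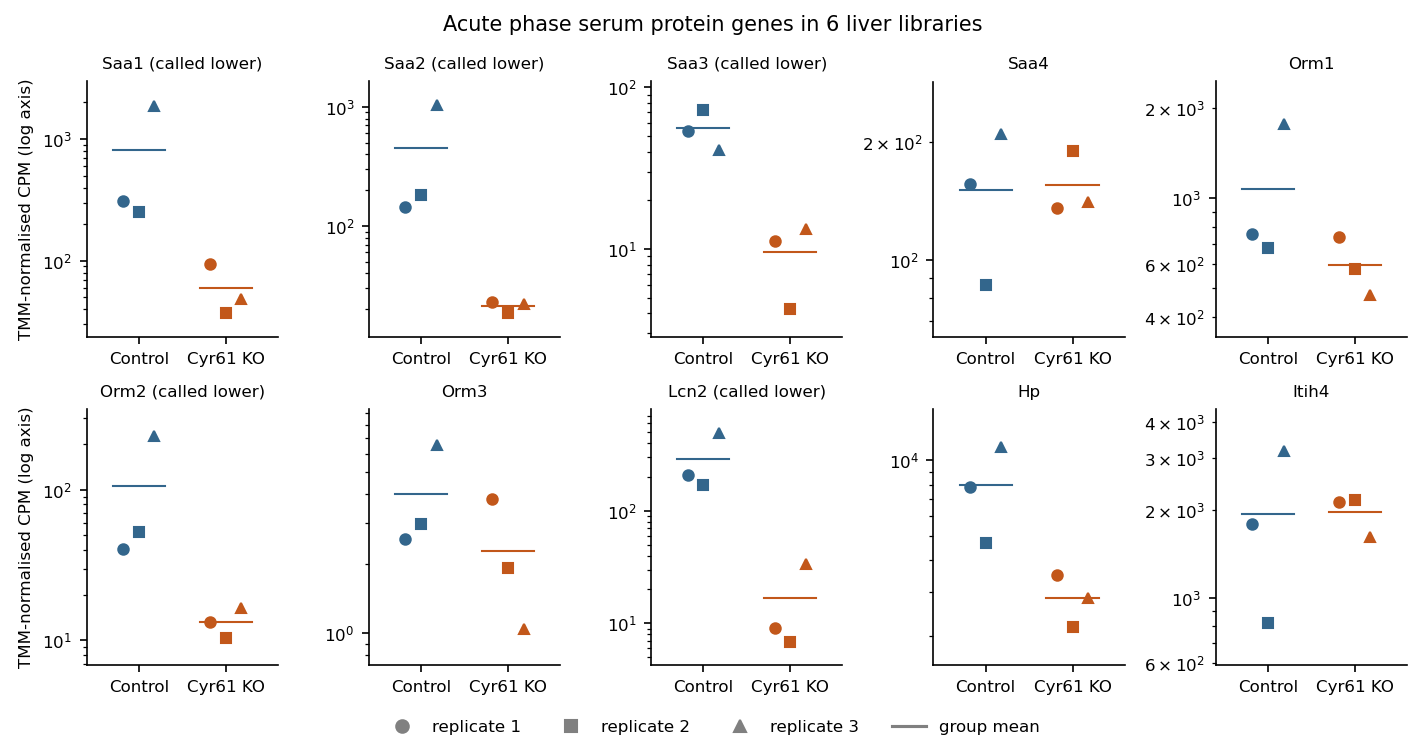
Expression of the 10 genes in each library, as TMM-normalised CPM on a log axis with its own range for each gene. Points are libraries (shape gives the replicate number), lines are group means. The groups do not overlap for Saa1, Saa2, Saa3, Orm2, Lcn2 and Hp, and control replicate 3 is the highest control for every gene but Saa3.

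Saa1 and Saa2, the inducible serum amyloid A genes of the hepatocyte, were 13.6-fold and 21.3-fold lower in Cyr61 KO. Saa1 (ENSMUSG00000074115.5, chr7:46740497-46742980, minus strand) was at 313, 253 and 1879 CPM in controls and at 93.8, 37.3 and 48.8 CPM in Cyr61 KO, with a log2 fold change of -3.76 ± 0.82 (adjusted p = 0.0448). Its lowest control was 2.70 times its highest Cyr61 KO library. Control replicate 3 held 6.64 times the mean of the other control libraries, and without it the log2 fold change was -2.22 (adjusted p = 0.0210), while leaving out control replicate 2 gave -4.15 (adjusted p = 0.0450). Saa2 (ENSMUSG00000057465.5, chr7:46751790-46754313, plus strand) was at 145, 181 and 1029.8 CPM in controls and at 22.9, 18.6 and 22.4 CPM in Cyr61 KO, with a log2 fold change of -4.41 ± 0.76 (adjusted p = 0.0277). The Cyr61 KO libraries lay close together for Saa2, with a coefficient of variation of 11.1% against 111% in controls. Without control replicate 3, which again stood far above the other controls, Saa2 was at -2.92 (adjusted p = 0.0105), and with control replicate 2 left out it was at -4.75 (adjusted p = 0.0344).

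Saa3, a serum amyloid A gene that macrophages and adipocytes also express, fell 5.81-fold and had a different order among the controls. It is ENSMUSG00000040026.8 at chr7:46711998-46715700 on the minus strand. It was at 53.9, 72.4 and 40.8 CPM in controls and at 11.2, 4.26 and 13.2 CPM in Cyr61 KO, a log2 fold change of -2.54 ± 0.41 (adjusted p = 0.0248). The control library with the most Saa1 and Saa2, replicate 3, held the least Saa3, and the groups did not overlap. Without control replicate 2, the control library with the most Saa3, the log2 fold change was -2.28, at an adjusted p just under the threshold (0.04999). Without control replicate 3 it was -2.70 (adjusted p = 0.0169).

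Saa4, the constitutive serum amyloid A gene (ENSMUSG00000040017.8, chr7:46727998-46732603, minus strand), lies between Saa3 and Saa1 and did not pass the test. It was at 156, 86.5 and 209.5 CPM in controls and at 136, 189.9 and 141 CPM in Cyr61 KO. The Cyr61 KO libraries all fell within the range of the controls, and the log2 fold change was 0.04 ± 0.34 (adjusted p = 0.944). Its sign was not stable, at -0.15 with library totals, -0.21 without control replicate 2 (adjusted p = 0.589) and 0.37 without control replicate 3 (adjusted p = 0.523).

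The serum amyloid A genes have close copies, which bears on how reads could be placed. The coding sequences of Saa1 and Saa2 are 95.1% identical, while Saa1 shares 77.1% with Saa3 and 67.3% with Saa4. Of the stretches of 50 bases in Saa1 transcripts 31.5% also occur in Saa2 and in part Saa3, and of stretches of 100 bases 8.96%, all in Saa2. Reads from such stretches map to several positions and were not counted, so the levels of Saa1 and Saa2 are uncertain. The shares count stretches over all annotated transcripts of a gene, not reads, so they do not give the size of that uncertainty. With their counts summed as 1 gene, the log2 fold change was -3.96 (adjusted p = 0.0396). In Saa3 and Saa4, 4.15% and 1.27% of 50-base stretches occur in another gene, and 0 stretches of 100 bases do.

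Of the orosomucoid genes, which lie side by side on chromosome 4, Orm2 fell and Orm1 and Orm3 did not pass the test. Orm2 (ENSMUSG00000061540.3, chr4:63362449-63365878, plus strand) was at 40.2, 52.6 and 226 CPM in controls and at 13.3, 10.4 and 16.3 CPM in Cyr61 KO. The groups did not overlap, and the log2 fold change was -2.99 ± 0.63 (adjusted p = 0.0428), or -1.78 without control replicate 3 (adjusted p = 0.0169). Without control replicate 2 Orm2 was at -3.28, again just under the threshold (adjusted p = 0.04999).

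Orm1 (ENSMUSG00000039196.2, chr4:63344560-63348163, plus strand), the most abundant of the 3, was at 756, 681 and 1764 CPM in controls and at 743, 578 and 476 CPM in Cyr61 KO. Its groups overlapped, since the highest Cyr61 KO library lay above the lowest control, and the log2 fold change was -0.83 ± 0.42 (adjusted p = 0.231). Without control replicate 3, the library with the most Orm1, it was -0.25 (adjusted p = 0.692), and with control replicate 2 left out -1.04 (adjusted p = 0.158). Orm3 (ENSMUSG00000028359.4, chr4:63356162-63359511, plus strand) was low throughout, at 2.56, 2.96 and 6.56 CPM in controls and 3.83, 1.92 and 1.04 CPM in Cyr61 KO. Its log2 fold change of -0.83 ± 0.56 had an adjusted p of 0.356, and the groups overlapped. It was -0.97 (adjusted p = 0.360) and -0.27 (adjusted p = 0.785) with control replicates 2 and 3 left out in turn. The coding sequences of Orm1 and Orm2 are 89.9% identical and 22.7% of the 50-base stretches of Orm2 occur in another gene, mostly Orm1, so part of the reads of either could not be assigned. Summed as 1 gene, in which Orm1 dominates, the 3 had a log2 fold change of -0.94 (adjusted p = 0.200).

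Lcn2 (ENSMUSG00000026822.14, chr2:32384633-32388252, minus strand), which hepatocytes and neutrophils both make, was 17.5-fold lower in Cyr61 KO. It was at 209, 169.6 and 495 CPM in controls and at 9.06, 6.88 and 34.0 CPM in Cyr61 KO. The lowest control was 4.99 times the highest Cyr61 KO library, and the log2 fold change was -4.13 ± 0.71 (adjusted p = 0.0272). Cyr61 KO replicate 3 held the most Lcn2 of its group, and without it the log2 fold change was -5.18 (adjusted p = 0.00691). Without control replicate 3 it was -3.49 (adjusted p = 0.0195), and without control replicate 2 it was -4.37 (adjusted p = 0.0407). Lcn2 shares 0 stretches of 50 bases with other genes.

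Hp (ENSMUSG00000031722.10, chr8:109575128-109579172, minus strand), the most abundant of the 10, had lower values in every Cyr61 KO library and missed the threshold. It was at 7833, 4691 and 11279 CPM in controls and at 3503, 2173 and 2844 CPM in Cyr61 KO. The gap between the groups was narrow, with the lowest control at 1.34 times the highest Cyr61 KO library. The log2 fold change was -1.48 ± 0.44 (adjusted p = 0.0860), and it passed by DESeq2 (-1.46, adjusted p = 9.1e-04), by limma voom with quality weights (-1.84, adjusted p = 9.2e-04) and by edgeR without control replicate 2 (-1.72, adjusted p = 0.0450). With control replicate 3 left out it was at -1.13 by edgeR (adjusted p = 0.176). DESeq2 called 10.2% and limma voom 17.8% of all genes lower, and each called 6 of the 10, the 5 genes of edgeR and Hp.

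Itih4 (ENSMUSG00000021922.17, chr14:30886476-30902353, plus strand) did not pass the test. It was at 1788, 819 and 3169 CPM in controls and at 2127, 2156 and 1616 CPM in Cyr61 KO. The controls spanned a wider range than the Cyr61 KO libraries and enclosed it, and the log2 fold change was 0.03 ± 0.48 (adjusted p = 0.972). The sign turned with the processing: it was -0.05 with limma voom, -0.14 with library totals and -0.30 without control replicate 2 (adjusted p = 0.564), against 0.61 without control replicate 3 (adjusted p = 0.435).

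**Figure D3:**
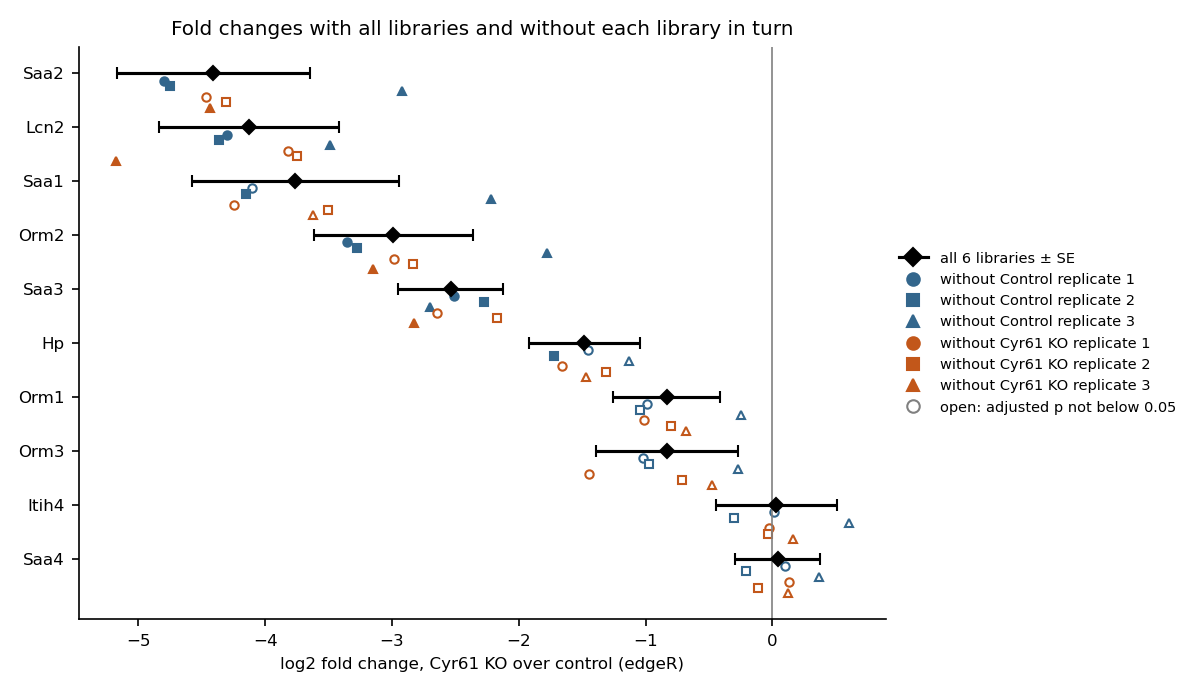
Log2 fold changes of Cyr61 KO over control for each gene, from edgeR. Black diamonds are all 6 libraries with bars of ± 1 SE, coloured symbols the same fit without 1 library, and open symbols have an adjusted p of 0.05 or above. Without Cyr61 KO replicate 1 or 2 every symbol is open, although Saa2, Lcn2, Saa1, Orm2 and Saa3 stay below -1.7 in all fits.

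The 5 calls depended on which library was left out. Without Cyr61 KO replicate 1 none of the 10 was called (adjusted p of the 5 from 0.0878 to 0.117), and without Cyr61 KO replicate 2 none was (0.0588 to 0.191), in fits that called 7 and 24 genes in all. Saa1 alone was lost when control replicate 1 (adjusted p = 0.0502) or Cyr61 KO replicate 3 (adjusted p = 0.0673) was left out, and the 5 calls held without control replicate 2 or 3. With library totals in place of TMM, a scaling that moved the median of all genes from -0.03 to -0.30, the adjusted p of the 5 ran from 0.0511 to 0.0664 and their log2 fold changes from -4.54 to -2.86. The direction of each of these 5 genes and of Hp was the same in every alternative tried.

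Set side by side as CPM per kilobase of exon, haptoglobin had the highest mean in both groups and Orm3 the lowest. In controls Hp was at 4941 ± 2052 (SD, n = 3), followed by Orm1 at 1376 ± 780, Itih4 at 522 ± 320 and Saa1 at 329 ± 372. Hp lay above Orm1, and Orm1 above Itih4, without overlap of their ranges, whereas the ranges of Itih4, Saa1, Saa2 (179.6 ± 199), Orm2 (137 ± 134), Lcn2 (111 ± 67.8) and Saa4 (72.0 ± 29.5) each overlapped with the next. Saa3 at 21.4 ± 6.09 and Orm3 at 5.21 ± 2.85 each lay below the gene before it without overlap. In Cyr61 KO the first places kept their order, with Hp at 1768 ± 414, Orm1 at 772 ± 174 and Itih4 at 533 ± 82.3. Saa4 followed at 74.2 ± 14.3, above Saa1 at 24.2 ± 12.1 without overlap, although Saa1 lay above Saa4 in each control library. The last place of Orm3 in Cyr61 KO, at 2.93 ± 1.85, rested on the mean alone. Its range overlapped with that of Saa3 at 3.67 ± 1.81, and Saa3 was the higher in 1 library only.

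These levels depend on the length used, because annotated retained introns lengthen the exon union of some genes. Per kilobase of the transcript numbered first in GENCODE, in place of all exons, a choice made after the data were seen, Saa1 was at 1338 ± 1514 in controls, Saa2 at 746 ± 826, Lcn2 at 318 ± 194 and Saa3 at 100.4 ± 28.6. On that scale Saa1 ranked behind Hp and Orm1 in controls, and its range overlapped with that of Orm1. In Cyr61 KO Saa1 was then at 98.5 ± 49.1 and Saa4 at 74.2 ± 14.3, with overlapping ranges. The fold changes between groups do not involve a length.

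The 10 genes together took 1.15%, 0.968% and 1.87% of the gene counts in controls and 0.555%, 0.469% and 0.525% in Cyr61 KO, with every Cyr61 KO library below every control. Hp made up 56.1% to 69.3% of these counts in controls and 42.0% to 54.6% in Cyr61 KO. Itih4 took 11.7% to 15.8% in controls and 31.0% to 41.7% in Cyr61 KO, although its own level did not pass the test.

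Ratios between these genes within a library do not depend on how libraries are scaled. In all, 7 were computed, chosen after the data were seen, and compared by two-sided exact permutation tests of 3 libraries against 3, whose smallest possible p is 0.1 (0.175 after adjustment over the 7). The ratio of Saa1 to Saa4 counts was 1.998, 2.93 and 8.97 in controls and 0.692, 0.197 and 0.347 in Cyr61 KO. The ratio of Orm2 to Orm1 was 0.0532, 0.0772 and 0.128 in controls and 0.0179, 0.0181 and 0.0344 in Cyr61 KO. In both ratios every Cyr61 KO library lay below every control library. The ratio of Lcn2 to Hp was 0.0266, 0.0361 and 0.0439 in controls and 0.00259, 0.00317 and 0.0120 in Cyr61 KO. That of Hp to Itih4 was 4.38, 5.73 and 3.56 in controls and 1.65, 1.01 and 1.76 in Cyr61 KO. These 4 ratios reached the smallest p, 0.1, and the groups did not overlap. The ratio of Saa1 to Saa2 was 1.40 to 2.16 in controls and 2.01 to 4.10 in Cyr61 KO (exact p = 0.2), that of Orm3 to Orm1 had an exact p of 0.7 and that of Saa3 to Saa1 one of 0.9, and in all 3 the groups overlapped.

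**Figure D4:**
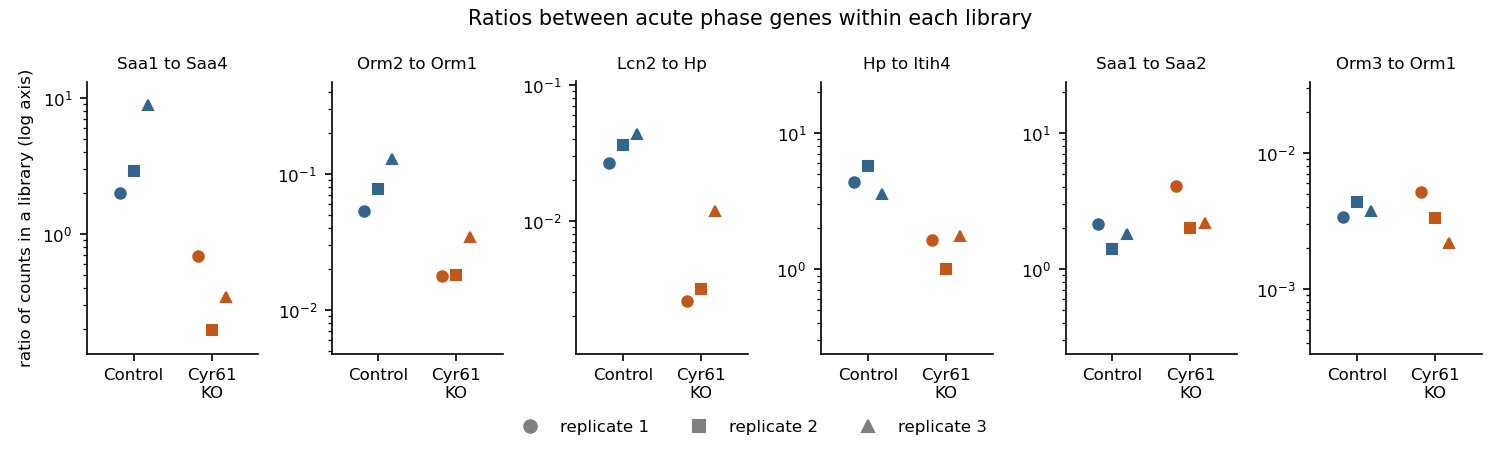
Ratios of read counts between 2 acute phase genes within each library, on log axes of equal span. Points are libraries, and shape gives the replicate number. The groups do not overlap for Saa1 to Saa4, Orm2 to Orm1, Lcn2 to Hp and Hp to Itih4, and overlap for Saa1 to Saa2 and Orm3 to Orm1.

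Of 32 other positive acute phase genes, all of them tested, edgeR called 2 lower (6.25%, against 2.37% of all genes) and 0 higher (against 1.07%). At an unadjusted p below 0.05 there were 7 lower (21.9%, against 16.1% of all genes) and 2 higher (6.25%, against 11.3%). DESeq2 called 6 of them lower (18.8%, against 10.2%) and 1 higher (3.12%, against 6.54%). Their median log2 fold change was 0.06, against -0.03 for all genes. The 2 were the metallothioneins Mt1 and Mt2, which bind zinc and copper. Mt1 was at 55.0, 107 and 141 CPM in controls and 11.7, 13.2 and 12.0 in Cyr61 KO (log2 fold change -3.03 ± 0.34, adjusted p = 0.0107). Mt2 had a log2 fold change of -3.13 ± 0.41 (adjusted p = 0.0146). Serpina1e, an alpha-1-antitrypsin gene with close copies, was at -2.31 (adjusted p = 0.0544), and Cd14, the lipopolysaccharide co-receptor, at -1.88 (adjusted p = 0.0726). The 2 that were higher at an unadjusted p below 0.05 were Hamp2 at 2.74 (adjusted p = 0.0938) and Crp at 0.75 (adjusted p = 0.140). For Crp every Cyr61 KO library lay above every control, while for Hamp2 the groups overlapped. Of the 32, 18 had a positive log2 fold change and 14 a negative one. The count of 2 fell to 0 without Cyr61 KO replicate 1 and to 1 without Cyr61 KO replicate 2, and was 4 with any 1 of control replicates 2 and 3 and Cyr61 KO replicate 3 left out. Of all genes, those fits called 0.0215%, 0.086%, 1.22%, 5.17% and 4.35% lower, in that order.

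Negative acute phase genes gave 0 calls among 18 tested in either direction, where edgeR called 3.44% of all genes. At an unadjusted p below 0.05 there were 0 lower and 1 higher, DESeq2 called 1 higher (5.56%, against 6.54% of all genes) and limma voom 2, and the median log2 fold change was 0.20. Pon1, the paraoxonase of high-density lipoprotein, was at 423, 248 and 403 CPM in controls and 908, 779 and 607 in Cyr61 KO (log2 fold change 1.10, adjusted p = 0.0834). Alb, the gene of albumin, was at 0.67 (adjusted p = 0.454), Rbp4 of the retinol carrier at 0.55 (adjusted p = 0.344) and Serpina6 of the corticosteroid carrier at 0.48 (adjusted p = 0.269).

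**Figure D5:**
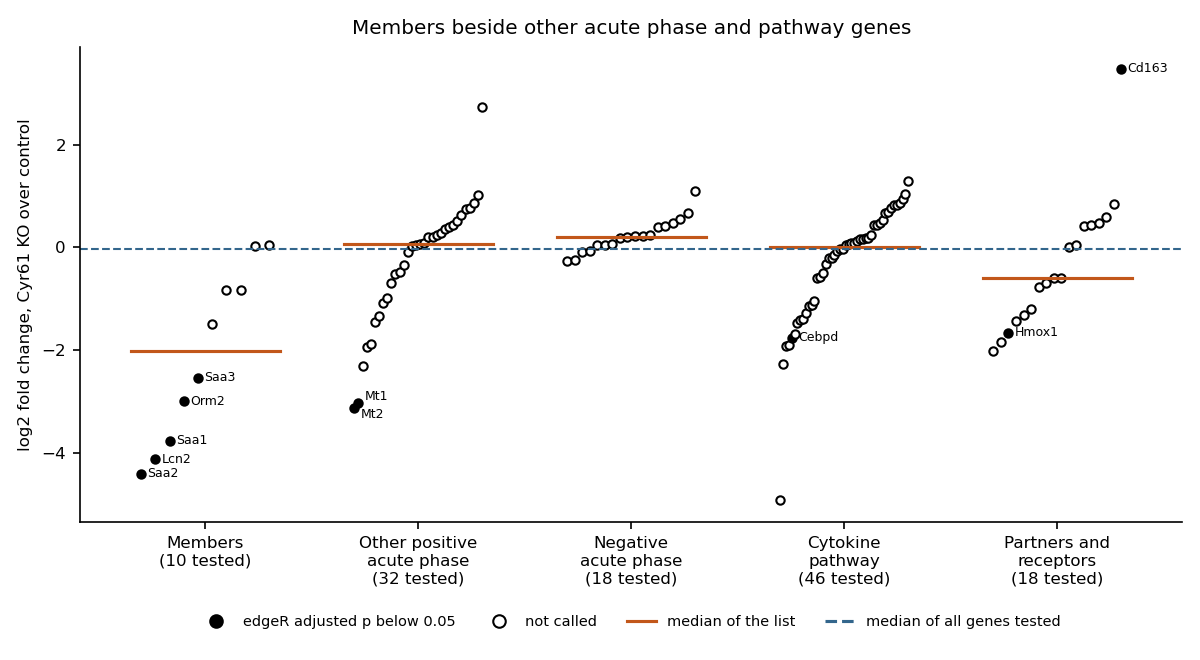
Log2 fold changes of the 10 genes beside 4 other gene groups. Each point is a gene, filled where edgeR's adjusted p is below 0.05, with group medians as orange lines and the median of all genes tested as a dashed line. The median of the 10 is -2.01, against 0.06 in the other positive acute phase genes and 0.20 in the negative ones.

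Among the cytokines, receptors and transcription factors that act on acute phase genes, 46 of 50 were tested, and edgeR called 1 lower (2.17%, against 2.37% of all genes) and 0 higher (against 1.07%). At an unadjusted p below 0.05 there were 11 lower (23.9%, against 16.1% of all genes) and 6 higher (13%, against 11.3%). DESeq2 called 10 lower (21.7%, against 10.2%) and 4 higher (8.7%, against 6.54%). Their median log2 fold change was 0.01. The gene called was Cebpd, which encodes the inducible factor C/EBP delta. It was at 19.9, 23.6 and 22.1 CPM in controls and 6.12, 5.71 and 7.51 in Cyr61 KO, a log2 fold change of -1.76 ± 0.21 (adjusted p = 0.0107). The groups were well apart and each was narrow, without the high value of control replicate 3 seen in Saa1 and Saa2. Cebpb, of the related C/EBP beta, was at -0.59 (adjusted p = 0.202). Called lower were 0 of the 46 without Cyr61 KO replicate 1 or 2, 7 with control replicate 3 left out and 6 with Cyr61 KO replicate 3 left out. Of all genes, those fits called 0.0215%, 0.086%, 5.17% and 4.35% lower, in that order.

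The NF-kB subunit genes Relb and Nfkb2 were at -1.89 (adjusted p = 0.0503) and -1.39 (adjusted p = 0.0573). Osm, of the cytokine oncostatin M, was at 0.365, 1.45 and 0.371 CPM in controls and 0, 0 and 0.0561 in Cyr61 KO (adjusted p = 0.0520). Il1b was at -1.42 (adjusted p = 0.114) and Tnf at -1.92 (adjusted p = 0.117). By edgeR none of these 5 passed the threshold, whereas DESeq2 called all 5 lower, with adjusted p from 5.9e-04 (Relb) to 0.0473 (Tnf). Il6 was at 0 to 0.0688 CPM and was not tested. Its receptor gene Il6ra was at 0.82 (adjusted p = 0.128), Stat3 at 0.19 (adjusted p = 0.684), Socs3, the feedback inhibitor of STAT3 signalling, at 0.06 (adjusted p = 0.947) and Nfkbiz, of the NF-kB cofactor I-kappa-B zeta, at -0.58 (adjusted p = 0.464).

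Of 22 genes for ligand partners and receptors of these proteins 18 were tested, and edgeR called 1 higher and 1 lower (5.56% each, against 1.07% and 2.37% of all genes), with a median log2 fold change of -0.60. At an unadjusted p below 0.05 there were 4 lower (22.2%, against 16.1% of all genes) and 1 higher (5.56%, against 11.3%). DESeq2 called 4 lower (22.2%, against 10.2%) and 1 higher (5.56%, against 6.54%). The haemoglobin genes Hbb-bs, Hbb-bt, Hba-a1 and Hba-a2 were at 0 in every library. Whether their reads were lost in mapping or counting was not tested. Cd163, the macrophage receptor for haptoglobin-haemoglobin complexes, rose from 0.730, 0.379 and 1.42 CPM in controls to 14.4, 7.59 and 6.42 in Cyr61 KO, a log2 fold change of 3.48 ± 0.54 (adjusted p = 0.0237). Hmox1, of the enzyme that degrades the haem delivered by this route, was at 76.2, 74.5 and 62.3 CPM in controls and 17.7, 15.6 and 34.0 in Cyr61 KO (-1.66 ± 0.31, adjusted p = 0.0334). The ligand gene Hp had lower values without passing. By edgeR, 0 of the 18 were called with library totals, with control replicate 1 left out, or with either of the Cyr61 KO replicates 1 and 2 left out. Those fits called 50, 174, 7 and 24 genes in all, in that order. Tlr2, a receptor described for serum amyloid A, was at -1.44 (adjusted p = 0.0814) and Mmp9, whose protein pairs with lipocalin 2, at -2.01 (adjusted p = 0.0889). DESeq2 called both lower, with adjusted p of 0.0109 for Tlr2 and 0.0146 for Mmp9.

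Markers of other cell types are given as summed levels, and their counts of calls stand beside the 2.37% of all genes that edgeR called lower. The 13 hepatocyte markers summed to 42941 to 105638 CPM in controls, lowest in control replicate 2, and to 112688 to 137816 CPM in Cyr61 KO. Alb made up 55.4% to 72.2% of this sum and was not called (0.67, adjusted p = 0.454). Without Alb the sums were 19143 to 39461 CPM in controls and 31297 to 47713 CPM in Cyr61 KO, and the groups overlapped. Of these 13, edgeR called 1 higher, Cyp2e1 (7.69%, against 1.07% of all genes), and 0 lower. At an unadjusted p below 0.05 there were 1 lower (7.69%, against 16.1%) and 2 higher (15.4%, against 11.3%). DESeq2 called 0 lower (against 10.2%) and 2 higher (15.4%, against 6.54%). Ass1 was near 0 in all libraries at 0.0891 to 0.551 CPM, and whether its reads were lost in mapping or counting was not tested. Of 13 neutrophil markers 12 were measured and 9 tested. They summed to 18.5 to 98.6 CPM in controls, highest in control replicate 2, and to 4.01 to 8.41 CPM in Cyr61 KO. By edgeR 3 of the 9 were called lower, S100a9 (-3.90), S100a8 (-4.09) and Prtn3 (-4.73). All 9 were lower at an unadjusted p below 0.05 (100%, against 16.1% of all genes). DESeq2 likewise called all 9 lower (100%, against 10.2%). Elane and Mpo did not exceed 2.23 CPM in any library. The library with the highest neutrophil sum had the lowest Lcn2 of the controls, at 169.6 CPM.

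The 12 macrophage markers summed to 729 to 1116 CPM in controls and 226 to 609 CPM in Cyr61 KO. By edgeR 3 of the 12 were called lower, Trem2, Gpnmb and Lyz2. At an unadjusted p below 0.05 there were 6 lower (50%, against 16.1% of all genes) and 1 higher (8.33%, against 11.3%). DESeq2 called 6 lower (50%, against 10.2%) and 1 higher (8.33%, against 6.54%). Of the Kupffer cell markers in that list, Timd4 was at 1.58 (edgeR adjusted p = 0.0627, DESeq2 adjusted p = 0.00246), with every Cyr61 KO library above every control, Clec4f at 0.22 (adjusted p = 0.666) and Vsig4 at -0.15 (adjusted p = 0.816). Both the macrophage sum and Saa3 were highest in control replicate 2 and lowest among controls in replicate 3. The stellate cell, cholangiocyte and adipocyte sums given next had that same order of the controls, so it is not particular to the macrophage markers. The 10 stellate cell markers summed to 743 to 1275 CPM in controls, highest in control replicate 2, and to 300.2 to 522 CPM in Cyr61 KO. By edgeR 4 of the 10 were called lower, while Lrat was at 0.09 (adjusted p = 0.840) and Reln at 0.05 (adjusted p = 0.918). Lower at an unadjusted p below 0.05 were 8 of the 10 (80%, against 16.1% of all genes), and DESeq2 called 6 lower (60%, against 10.2%). The 10 cholangiocyte markers summed to 302, 1450 and 246 CPM in controls, so the high value was that of control replicate 2, and to 84.5 to 166 CPM in Cyr61 KO. By edgeR 1 of the 10 was called lower. Lower at an unadjusted p below 0.05 were 9 of the 10 (90%, against 16.1% of all genes). DESeq2 called 6 lower of the 8 to which it gave an adjusted p (75%, against 10.2%). The 8 adipocyte markers summed to 20.6, 57.6 and 19.4 CPM in controls and to 10.3 to 11.8 CPM in Cyr61 KO. Of these 8, 2 were tested and 0 called by edgeR. Lower were 1 at an unadjusted p below 0.05 (50%, against 16.1% of all genes) and 1 by DESeq2 (50%, against 10.2%). Lep was at 0 in all libraries and Adipoq did not exceed 0.0561 CPM. Gut and pancreas markers summed to 1297 CPM in control replicate 2, of which Dmbt1 made up 1151 CPM, and to 94.3 to 227 CPM elsewhere, with Prss1 and Amy2b at 0. Of 7 tested, edgeR called 1 lower, Tff3 (-4.14, adjusted p = 0.0428). Tff3 was at 40.6, 30.7 and 106 CPM in controls and 7.93, 0.745 and 1.37 CPM in Cyr61 KO. At an unadjusted p below 0.05 there were 4 lower (57.1%, against 16.1% of all genes). DESeq2 called 2 lower of the 6 to which it gave an adjusted p (33.3%, against 10.2%). The part of these cell types in the values of Saa3, Lcn2 and the other genes was not tested.

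Over the 6 libraries, the genes outside all lists whose log2 CPM was most like the mean log2 CPM of the 10 were Afp (Pearson r = 0.987), Atp5s (0.987), Dnah1 (0.985), Gskip (0.984) and Dynlt3 (0.981). This is a description over 6 libraries that share their groups, and any gene that is high in control replicate 3 and low in Cyr61 KO scores well. Dnah1 was the one of these 5 that was called lower, at -2.98 (adjusted p = 0.0438), and Afp, of the fetal albumin-like protein, was at 2.58, 2.20 and 4.42 CPM in controls and 1.604, 1.28 and 1.68 CPM in Cyr61 KO (adjusted p = 0.156).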

How the data were processed

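The authors deposited unnormalised read counts per gene for each library, as an unstranded column and 1 column per strand. The submitters' processing notes name Trimmomatic 0.38, STAR 2.6.1a and the builds hg38 and mm10. An annotation release and mapping settings were not given in the sources used here. The strand column that matches the directional kit, per the labels' protocols, was analysed. The opposite column held 0.928% to 1.35% of the gene counts of both strand columns together. Rows that name no gene stayed out of library sizes. Reads outside genes were 4.27% to 7.14%, and 25.7% in control replicate 2. Reads at several positions were 3.74% to 5.73%, and 19.4% in that library. Unmapped reads were 2.21% to 3.83% and reads in several genes 0.655% to 1.04%. The series-wide table repeated the unstranded column and was not tested.

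The test was edgeR's (4.0.16, R 4.3.3) two-sided quasi-likelihood F test on TMM-scaled counts with group as the only term. Genes entered with filterByExpr at a smallest count of 10 and total of 15, and were called where the Benjamini-Hochberg adjusted p was below 0.05. The SE divides the size of the log2 fold change by the root of F. DESeq2 1.42.0 and limma 3.58.1 (voom with quality weights) were alternatives, beside other scalings, filters, a replicate block, the unstranded column, close copies summed and each library left out in turn. The script was tested on simulated data of this comparison, 3 draws of 13563 genes with 200 altered. Of these it found 11.8% at 2-fold, 78.1% at 4-fold and 90.9% at 8-fold, and 8.67 unaltered genes per draw were called. Replicates of a group differed beyond sampling noise (chi-square per degree of freedom of 54.9 or more in every pair).

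The 10 genes and all gene lists were chosen with earlier results of these data known. Named from each list were its called genes, further genes by p up to 4, a few cytokine pathway genes set beforehand, and up to 3 markers by CPM, some of which are given only within sums. Hamp2 and Crp were added as the higher genes of their list at an unadjusted p below 0.05. Genes most alike were ranked on log2 CPM with a prior count of 2. Positions, exons and coding sequences come from GENCODE on GRCm38, the assembly of mm10, and promoters from RefSeq on GRCm38.p6. Identity between copies was computed on coding sequences in place of the proteins that had been planned.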

Additional observations from a re-analysis of the deposited data

How the results depend on the processing

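Of the 10 genes, 5 or 6 were called lower in the alternatives that keep all 6 libraries, apart from 0 with library totals, and 0 to 6 when a library was left out. Over all these alternatives their median log2 fold change stayed between -2.27 and -1.45. All genes called were 467, of which 322 lower. They numbered 2273 with DESeq2 (61.0% lower), 4483 with limma voom (53.7% lower), 50 with library totals (46.0% lower, against 69.0%), 944 without a low-count filter, and 7 to 878 when a library was left out. Of all genes tested, 2.37% were called lower, against 10.2% with DESeq2 and 17.8% with limma voom. That share was 0.17% with library totals, 2.34% with DESeq2's size factors, 3.72% without the filter and 0.0215% to 5.17% with a library left out. Called higher were 886 of 13563 genes with DESeq2 and 2074 with limma voom. The lists below had 32, 18, 46 and 18 genes tested in the main fit. Other positive acute phase genes called lower (2) numbered 6 with DESeq2, 8 with limma voom, 5 without the filter and 0 to 4 when a library was left out. Negative acute phase genes called higher (0) numbered 1 with DESeq2 and 2 with limma voom, and 0 without any 1 library. Cytokine pathway genes called lower (1) numbered 10 with DESeq2, 12 with limma voom, 2 with DESeq2's size factors, 5 without the filter and 0 to 7 when a library was left out. Partner and receptor genes called (2) numbered 5 with DESeq2, 6 with limma voom, 0 with library totals and 0 to 4 when a library was left out. The sign of Itih4 turned with limma voom (-0.048), library totals (-0.14) and left-out libraries (-0.30 to 0.61), and that of Saa4 with library totals (-0.15) and left-out libraries (-0.21 to 0.37). Lcn2 was at -4.75 and Saa2 at -3.83 with limma voom. The cause of these shifts was not tested.

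The groups share replicate numbers, and the libraries were treated as unpaired. The correlations of same-numbered deviations from group means were -0.06, -0.24 and -0.45, and no library correlated best with its own number. With so few libraries per group these values cannot settle whether the libraries were paired. With the replicate number as a block, edgeR called 697 genes and the same number of the 10 genes, 5, with 4 other positive acute phase genes lower, 0 negative ones higher, 6 cytokine pathway genes lower and 3 partner and receptor genes, and Saa1 was at -3.18 and Saa2 at -3.77. That fit called 3.69% of all genes lower.

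Depth limits Orm3 most, at 37 to 212 counts per library, and the counting error of the other genes is small beside the spread between libraries.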
